A study of Mus musculus with 13 samples.

Results

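The genes described here encode the core of the DNA replication machinery. They are 40 genes: the 6 subunits of the MCM2-7 helicase, 7 origin licensing genes, the GINS subunits with Cdc45, the sliding clamp Pcna with the clamp loader Rfc1 to Rfc5, replicative polymerases and primase, RPA, Fen1, Lig1, and 3 genes of nucleotide supply. They are a list of names: every array probe set annotated to exactly 1 gene symbol that is among the 40 was taken, which gave 88 of the 45037 probe sets that are not controls, and 40 of the 18193 genes that have such a probe set. The rule uses no measured value, but the list was drawn up with earlier results of these data known.

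Affymetrix mouse arrays had been hybridised with total RNA of mouse embryonic stem cells (ESC) that carry a GFP reporter of Stella (Dppa3, a protein of early germ cells), and of cells from embryoid bodies grown from such cells for 7 days. The 13 arrays fall into 5 groups. They are Stella-positive day 7 cells, which the labels call in vitro primordial germ cells (4 arrays), Stella-negative day 7 cells (2), Stella-positive ESC (2), Stella-negative ESC (3) and unsorted ESC (2). All groups share the StellaGFP background. The strain, culture medium and cell numbers are not given in the labels. The description of 1 Stella-positive ESC array names a BAC, and that of no other array does, so it is not settled whether all arrays come from a single reporter line. The labels do not say whether the arrays of a group stand for separate cultures. The p-values below therefore speak only to the spread between arrays, which may be technical, and with 2 to 4 arrays a group that spread is itself known poorly.

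DNA replication is prepared when the origin recognition complex (ORC), Cdc6 and Cdt1 load the ring-shaped MCM2-7 helicase onto DNA, a step that geminin blocks. In S phase Cdc45 and GINS join MCM2-7 to form the active helicase, RPA covers the single strands, primase and polymerase alpha start new strands, polymerases delta and epsilon extend them with the clamp PCNA, and FEN1 and LIG1 finish the lagging strand. Many of these genes are transcribed in proliferating cells through E2F factors, and mouse ESC are known for short cell cycles with a large share of cells in S phase.

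The sort labels went with Dppa3, at 728 to 1138 in Stella-positive and 74.6 to 101 in Stella-negative day 7 cells, in signal scaled to a common mean per array. In ESC it was 941 to 1473 in Stella-positive and 139 to 245 in Stella-negative cells. Among 7 germ cell markers, 4 were higher in Stella-positive than Stella-negative day 7 cells by the test used below, beside 10.2% of all genes. The 7 include Dppa3 itself, the gene of the sorted reporter, so its difference was set by the sort. Ddx4, an RNA helicase of later germ cells, was at 71.4 to 121 in Stella-positive and 32.4 to 32.9 in Stella-negative day 7 cells. Against Stella-negative ESC, Ddx4 in Stella-negative day 7 cells had a log2 difference of -1.17, the lowest of the 7. Dazl had the highest against ESC in both fractions, at 3.84 in Stella-positive and 2.28 in Stella-negative cells. For Prdm1 the day 7 difference, Stella-positive minus Stella-negative, was the lowest of the 7, at -0.19. The arrays differ in brightness and RNA state. Their trimmed means as deposited ran over a 27.1-fold range, with the lowest, 8.48, on Stella-positive day 7 array 4. The 3'/5' signal ratio of the actin control, which is high where transcripts are cut short, was 2.04, 2.17, 4.89 and 5.16 in Stella-positive and 5.48 and 5.85 in Stella-negative day 7 cells, and 1.12 to 1.23 on all ESC arrays. Hybridisation was done in 6 runs. Day 7 and ESC arrays share no run, so day of culture and run cannot be told apart, and neither can the unsorted ESC group and its run. No other array shared the run, hybridisation day or chip lot of Stella-positive ESC array 2. Stella-positive ESC array 1 shared its run with the Stella-negative ESC arrays.

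All 40 replication genes were measured above their array's median signal on at least 2 arrays, and 39 were so on all 13. The exception was Tyms (thymidylate synthase), which ranged from 19.7 to 76.7 over all arrays. Each gene is represented below by its probe set with the highest mean, and levels of different genes are not compared. The median of the 40 genes on the scale of log2(signal + c), where c is 10.5, was 9.12 to 9.32 in Stella-positive and 8.47 and 8.49 in Stella-negative day 7 cells. It was 9.63 and 9.26 in Stella-positive ESC, 9.24 to 9.48 in Stella-negative ESC and 8.94 and 9.15 in unsorted ESC. The Stella-negative day 7 arrays were thus the lowest of the 13, and no array of another group reached down to them.

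**Figure D1:**
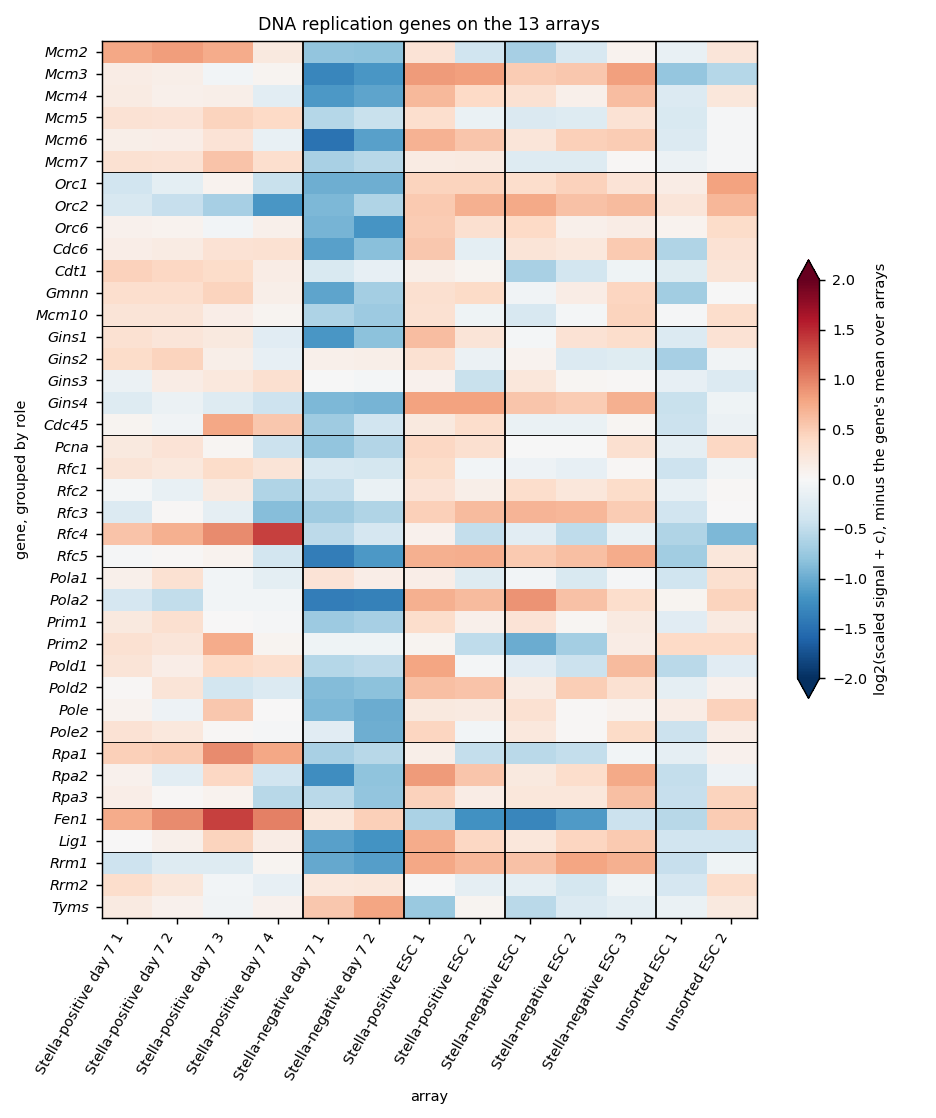
Each row is 1 of the 40 replication genes, ordered by role, and each column 1 of the 13 arrays; colour gives log2(scaled signal + c) minus the gene's mean over the arrays. The columns of Stella-negative day 7 cells are blue in most rows, while the Orc2 and Gins4 rows are blue on all 6 day 7 arrays and Fen1 is red on them.

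At day 7 the replication genes stood higher in the Stella-positive than in the Stella-negative cells. By limma's moderated test with Benjamini-Hochberg adjustment over all 30023 probe sets kept, 29 of the 40 rose and 0 fell, while over all 14007 genes tested 10.2% passed as higher and 9.07% as lower. The median log2 difference was 0.83 over the 40 genes and -0.09 over all genes tested. In 31 of the 40 every Stella-positive array lay above both Stella-negative arrays, a pattern shown by 19% of all genes. Since RNA came from bulk fractions, fewer replicating cells and less of these transcripts per cell cannot be told apart. The values ± in what follows are standard errors of limma's log2 difference, Stella-positive minus Stella-negative unless another pair is named.

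The helicase subunits all passed the test. Mcm2 had 2890.5, 3003, 2814 and 1927 in Stella-positive day 7 cells, against 970.1 and 958 in Stella-negative day 7 cells, a log2 difference of 1.43 ± 0.24 (adjusted p = 0.00104, limma). Its lowest Stella-positive array, number 4, still read above both Stella-negative arrays. For Mcm6 the 4 Stella-positive arrays read 1225, 1232, 1364 and 1021, and the Stella-negative arrays 399 and 526 (1.37 ± 0.18, adjusted p = 1.67e-04). Mcm3 read 1248, 1222, 1093 and 1179.7 in Stella-positive and 452 and 496 in Stella-negative day 7 cells (1.30 ± 0.16, adjusted p = 1.26e-04). In neither gene did the groups come near to overlapping. The other helicase genes, Mcm4, Mcm5 and Mcm7, had differences of 1.14, 0.86 and 0.99. Mcm7 stood at 5344, 5285, 6382 and 5449.7 in Stella-positive and at 2731 and 2915 in Stella-negative cells.

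Of the 7 origin licensing genes 6 rose. Cdc6, the ATPase that brings MCM2-7 to ORC, was at 424, 434, 475 and 477 in Stella-positive day 7 cells, against 175 and 212 in Stella-negative day 7 cells (1.19 ± 0.25, adjusted p = 0.00409, limma). Gmnn, which encodes the licensing inhibitor geminin, rose by 1.18 and the loading factor Cdt1, to which geminin binds, by 0.58. The Cdt1 call lies close to the threshold (adjusted p = 0.0486, limma). With the RNA quality covariate used below, Cdt1 was at 0.30 and did not pass. Its difference between the sorted ESC groups was 0.44. Orc1 rose by 0.74, Orc6 by 1.10, and Mcm10, which acts as the helicase is switched on, by 0.85. Orc2, another ORC subunit, did not pass: it read 218, 196, 168 and 116 in Stella-positive and 141 and 176 in Stella-negative cells, and the groups overlap (0.10 ± 0.24).

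Among the GINS subunits and Cdc45, which complete the helicase, Gins1 (1.12), Gins4 (0.65) and Cdc45 (0.88) rose. Gins2, at 543, 575, 456 and 371 in Stella-positive against 450.5 and 452 in Stella-negative day 7 cells, and Gins3, at 90.5, 110.1, 116 and 126 against 98.5 and 95.6, did not pass and their groups overlap.

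For the clamp and its loader, Pcna rose by 0.71, with 4958, 5245, 4463 and 3219.7 in Stella-positive day 7 cells, against 2509 and 2872 in Stella-negative day 7 cells. Rfc4, a small subunit of the clamp loader, was at 537, 593, 703 and 945 in Stella-positive and 247 and 282 in Stella-negative cells (1.33 ± 0.24, adjusted p = 0.00159, limma). Rfc5, another small subunit, was at 896, 926, 957 and 705 in Stella-positive and 345 and 408 in Stella-negative cells (1.18 ± 0.22, adjusted p = 0.00209). The 2 genes differ in which Stella-positive array stands out: array 4 was the highest for Rfc4 and the lowest for Rfc5. Rfc1, the large subunit, rose by 0.61, while Rfc2 (0.15 ± 0.21) and Rfc3 (0.33 ± 0.23) did not pass.

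In the 8 genes of polymerases and primase 6 rose, among them Pola2 (1.14), the second subunit of polymerase alpha, the polymerase epsilon catalytic gene Pole (1.08), the primase catalytic gene Prim1 (0.82) and the polymerase delta catalytic gene Pold1 (0.83). Pola2 read 173, 155, 212 and 214 in Stella-positive and 78.2 and 80.5 in Stella-negative day 7 cells. Pola1, which encodes the catalytic subunit beside Pola2, read 372, 431, 331 and 301 in Stella-positive and 420.2 and 381 in Stella-negative cells (-0.17 ± 0.22), and did not pass. Of these 2 subunits of 1 enzyme, 1 passed and the other did not. The primase gene Prim2, at 0.42 ± 0.27, did not pass either.

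Rpa1, the large subunit of the single-strand binding protein RPA, was at 5445, 5557, 7529.8 and 6664 in Stella-positive day 7 cells, against 2485 and 2638 in Stella-negative day 7 cells (1.28 ± 0.21, adjusted p = 8.64e-04, limma). Rpa2 rose 1.99-fold, and Rpa3, at 0.59 ± 0.25, did not pass. Lig1, the ligase that seals lagging-strand fragments, was at 697, 748, 956 and 774 in Stella-positive and at 324 and 297 in Stella-negative cells (1.32 ± 0.18, adjusted p = 2.28e-04). Both genes showed groups well apart. Fen1, the nuclease that trims those fragments, gave 0.66 ± 0.29 and did not pass. Of the nucleotide supply genes, Rrm1, the large subunit of ribonucleotide reductase, rose by 0.84, whereas its small subunit Rrm2 (-0.13 ± 0.21) and Tyms (-0.60 ± 0.33) did not pass. All these calls are of the brightest probe set only, and probe sets of 1 gene can differ, those of Rrm2 among them, as given below.

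**Figure D2:**
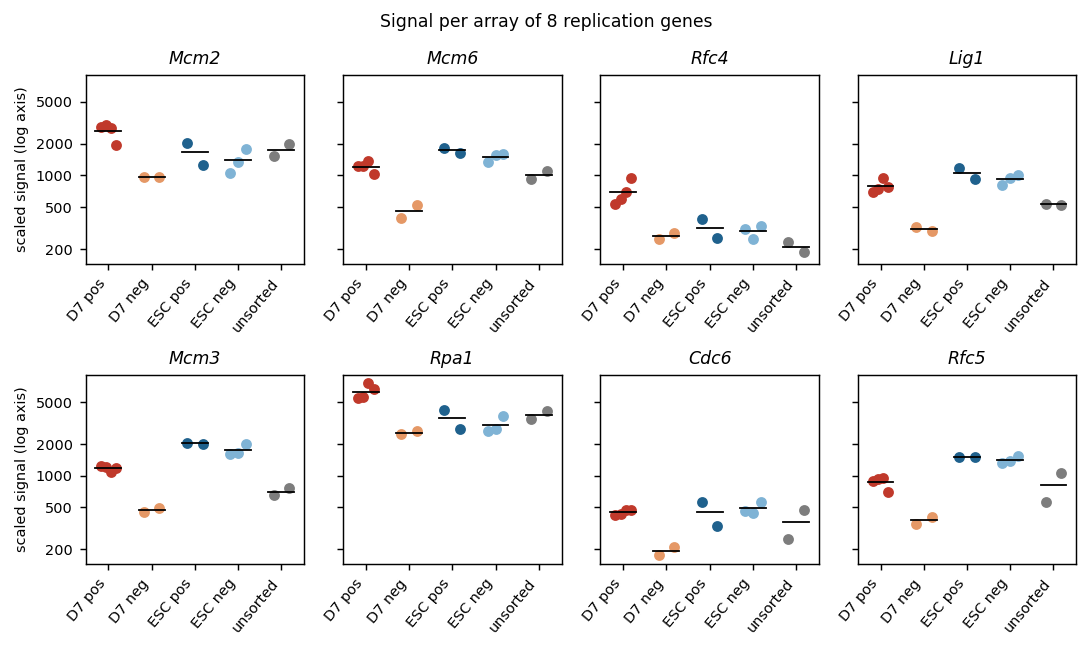
Scaled signal on a log axis for the 8 replication genes with the largest called differences at day 7; points are arrays, lines are group means, and D7 stands for day 7. In each gene the 4 Stella-positive day 7 arrays lie above both Stella-negative day 7 arrays, and Mcm2 in Stella-positive cells runs from 1927 to 3003. The genes were picked by this difference, so their separation is no further support.

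**Figure D3:**
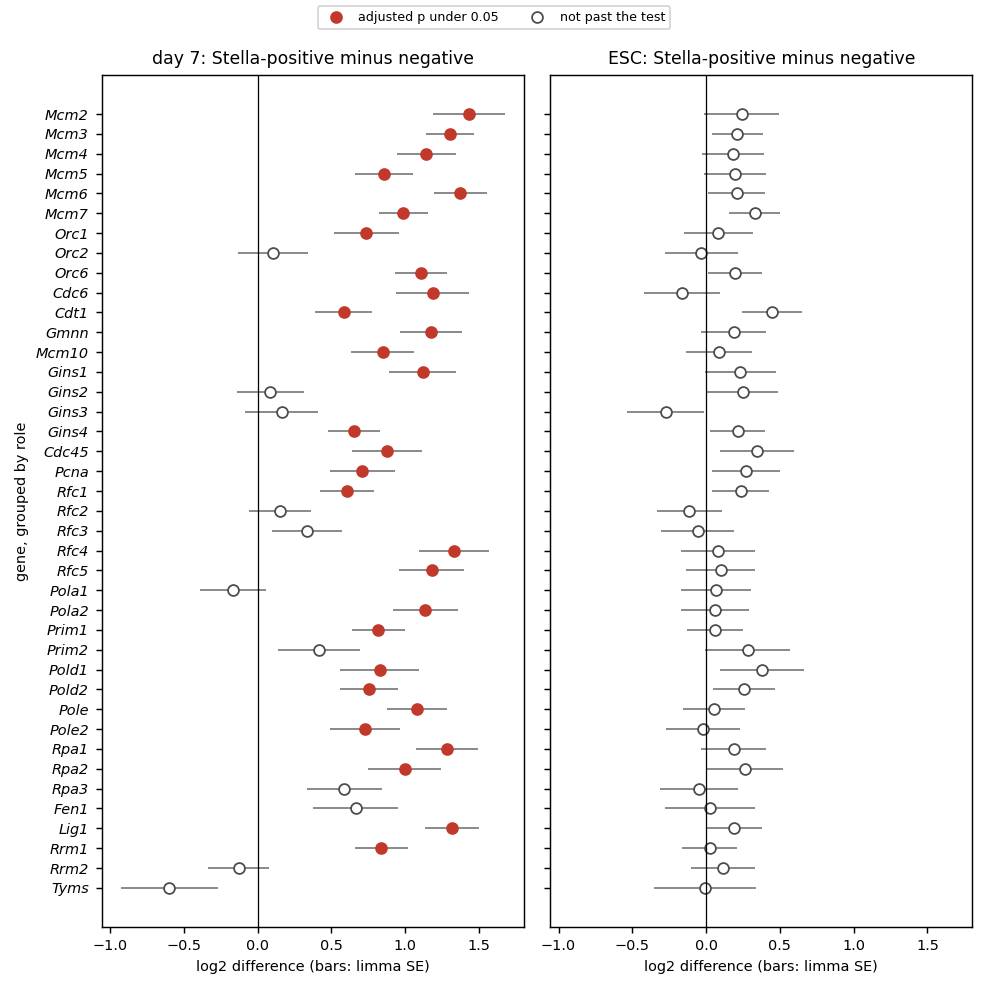
Log2 difference of Stella-positive minus Stella-negative cells for each replication gene at day 7 (left) and in ESC (right), with bars of 1 limma standard error; filled points passed the test. At day 7, 29 points are filled and all of them lie right of 0, while in ESC 0 are filled.

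The promoters of the 5 genes with the largest day 7 difference are shown because E2F sites are the best known regulatory letters of this gene group. RefSeq windows on build GRCm38.p6, from 250 bases before to 50 after each annotated start, were found for 32 of the 40 genes, 38 windows in all. Searched on both strands were the 4 E2F-type words of the form TTTNNCG in which each N is C or G, which may overlap each other; matches are in capitals below, and each sequence runs 5′ to 3′ on the strand of the gene.
Mcm2, chr6:88898731-88899030, minus strand: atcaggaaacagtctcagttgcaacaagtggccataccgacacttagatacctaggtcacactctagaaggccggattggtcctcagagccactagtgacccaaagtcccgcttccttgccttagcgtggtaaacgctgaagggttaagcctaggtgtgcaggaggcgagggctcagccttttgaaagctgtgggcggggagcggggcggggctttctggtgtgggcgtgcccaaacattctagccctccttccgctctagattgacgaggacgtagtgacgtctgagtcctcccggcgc
Mcm6, chr1:128359656-128359955, minus strand: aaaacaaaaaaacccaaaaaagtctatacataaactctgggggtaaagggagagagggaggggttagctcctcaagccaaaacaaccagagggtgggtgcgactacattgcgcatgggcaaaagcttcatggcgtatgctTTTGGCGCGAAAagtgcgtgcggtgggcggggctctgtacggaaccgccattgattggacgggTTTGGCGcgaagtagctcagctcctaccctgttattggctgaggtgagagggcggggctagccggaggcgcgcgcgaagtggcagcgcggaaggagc
Rfc4, chr16:23127681-23127980, minus strand: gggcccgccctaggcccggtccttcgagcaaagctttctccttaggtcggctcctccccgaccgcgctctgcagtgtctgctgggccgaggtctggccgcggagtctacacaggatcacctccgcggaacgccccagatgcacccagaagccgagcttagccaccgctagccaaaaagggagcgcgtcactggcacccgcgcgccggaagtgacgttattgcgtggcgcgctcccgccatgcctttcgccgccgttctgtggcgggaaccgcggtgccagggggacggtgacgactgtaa
Lig1, chr7:13278576-13278875, plus strand: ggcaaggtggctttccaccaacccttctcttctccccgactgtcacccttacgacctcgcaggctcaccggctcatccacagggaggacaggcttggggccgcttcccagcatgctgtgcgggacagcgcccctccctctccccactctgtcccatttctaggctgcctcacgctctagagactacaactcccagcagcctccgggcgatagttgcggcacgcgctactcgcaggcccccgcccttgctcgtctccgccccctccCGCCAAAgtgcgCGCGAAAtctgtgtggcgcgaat
Mcm3, chr1:20820263-20820562, minus strand: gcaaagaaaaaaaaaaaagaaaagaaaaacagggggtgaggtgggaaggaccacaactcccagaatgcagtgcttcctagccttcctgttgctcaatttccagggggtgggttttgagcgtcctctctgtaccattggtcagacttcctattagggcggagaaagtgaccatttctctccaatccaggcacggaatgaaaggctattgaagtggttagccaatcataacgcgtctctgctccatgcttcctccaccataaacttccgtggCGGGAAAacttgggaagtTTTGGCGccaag

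Mcm6 holds 3 matches, 2 of them overlapping at bases 141 to 152 of its window, and Mcm3 and Lig1 hold 2 each, past the annotated start. Lig1 has 3 windows, and its other 2, not shown, hold no such word. The windows of Mcm2 and Rfc4 hold none either. Over the member windows 47.4% hold at least 1 of the words, against 6.7% of all 32851 RefSeq windows of that length and 8.04% of those of protein-coding genes. Each of these words ends in CG, and the windows compared were not matched for base composition. The word CCAAT, bound by NF-Y in many cell cycle promoters, is in 63.2% of the member windows, against 37.4% of all windows. Of the 18 genes with such a word 13 passed the day 7 test, and of the 14 with a window and no such word 11 did. A match describes the letters only and shows no binding.

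The day 7 difference moved with RNA quality and with other cell types. The Gapdh 3'/5' ratio was 1.23 to 2.09 in Stella-positive and 3.03 and 3.18 in Stella-negative day 7 cells, so the 2 groups do not overlap in it. With log2 of that ratio as a covariate, 9 of the 40 replication genes passed, all higher: Mcm3, Mcm6, Mcm7, Cdc45, Rfc4, Pola2, Rpa1, Lig1 and Rrm1. In that fit 6.96% of all probe sets passed as higher and 9.39% as lower. The members' median was 0.71, and 31 of the 40 were above 0, against 37 without the covariate. The median over all probe sets was 0.07, against -0.12 without it. Single genes moved far: Mcm2 had 0.74 ± 0.47 (adjusted p = 0.294, limma), Pold2 0.07 and Pcna -0.12, while Rfc4, at 2.33, Cdc45, at 1.82, and Rpa1, at 1.80, were larger, so the order of the genes by size depends on it. Within the actin ratio the Stella-positive arrays 3 and 4, at 4.89 and 5.16, came close to the Stella-negative arrays, and their medians over the 40 genes, 9.32 and 9.12, were like those of arrays 1 and 2, 9.19 and 9.21. In the Gapdh ratio arrays 3 and 4, at 1.65 and 2.09, stayed well below the Stella-negative arrays. Array 4 was also the dimmest of all arrays as deposited. Without arrays 3 and 4, 26 genes passed as higher, beside 9.37% of all probe sets. With the hybridisation run as a block, which leaves 3 Stella-positive arrays and 1 Stella-negative array of a shared run, 14 genes passed as higher, beside 3.71% of all probe sets, and the median was 0.82. Leaving out Stella-negative array 1 left 12 genes past the test as higher, with a median of 0.79 and 2.79% of all probe sets higher. Leaving out array 2 left 16, with a median of 0.83 and 4.18%. All settings named here can be read against the 8.54% of all probe sets that passed as higher on all arrays, and in none of them did a member pass as lower.

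**Figure D4:**
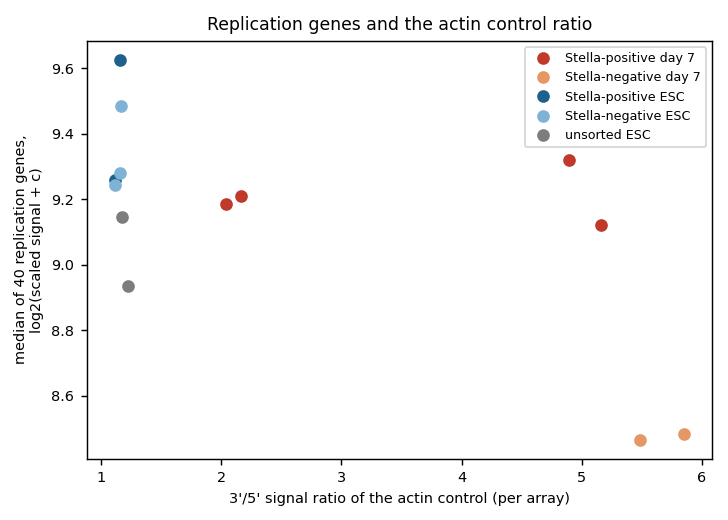
Median of the 40 replication genes, as log2(scaled signal + c), against the 3'/5' signal ratio of the actin control; each point is 1 of the 13 arrays, coloured by group. Stella-positive day 7 arrays with ratios of 4.89 and 5.16 sit at 9.32 and 9.12, and the Stella-negative day 7 arrays with 5.48 and 5.85 at 8.47 and 8.49. The Gapdh ratios of these arrays, not drawn, are 1.65, 2.09, 3.03 and 3.18 in the same order.

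Markers of differentiated cells were higher in the Stella-negative day 7 cells. The counts that follow stand beside 9.07% of all genes that passed as lower and 10.2% as higher. All 8 endoderm markers fell in Stella-positive relative to Stella-negative cells, their summed signal being 542 to 8352 and 21900.2 to 23606 in these groups, and so did all 5 cardiac and muscle markers (98.7 to 718 and 2059.5 to 2182). Blood markers fell in 3 of 5 (79.0 to 370.3 and 4127 to 4313), endothelial markers in 3 of 5 (163 to 560.5 and 965 to 1046) and fibroblast markers in 3 of 6 (357 to 1277 and 3047 to 3207). Pluripotent stem cell markers rose in 5 of 8, with sums of 8234 to 12087 and 4786 to 5408. The part of RNA quality and of cell makeup in the replication gene difference was not tested.

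In ESC the sort made no such difference that the test could pick up. Of the 40 genes 0 passed in either direction, with 1 at an unadjusted p under 0.05, while over all 14007 genes 0.00714% (1 gene, Dppa3) passed as higher and 0% as lower by limma, and 522 had an unadjusted p under 0.05. The members' median log2 difference was 0.18, against -0.04 over all genes, and 32 of 40 were above 0. The smallest p were those of Cdt1 (0.44 ± 0.20), Mcm7 (0.33 ± 0.17) and Cdc45 (0.35 ± 0.25), all with an adjusted p of 0.9999. Cdt1 read 3480.1 and 3326 in Stella-positive ESC and 2053, 2502 and 3035 in Stella-negative ESC, groups that do not overlap. Its 95% interval, 0.01 to 0.87, shows how wide a difference 2 against 3 arrays leave possible. For Mcm2, the gene with the largest day 7 difference, the ESC arrays read 2039 and 1270.2 in Stella-positive and 1061, 1342 and 1766 in Stella-negative cells, with an interval of -0.30 to 0.78.

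The sort difference at day 7 was then set against that in ESC by their interaction. Mcm6 (1.17 ± 0.26, adjusted p = 0.0496, limma) and Mcm3 (1.09 ± 0.24, adjusted p = 0.0428) had larger differences at day 7, and 0 of the 40 had smaller ones, while 0.6% of all genes passed as higher and 0.207% as lower. The members' median interaction was 0.66 and that of all genes -0.03, with 36 of 40 above 0. The largest value that did not pass was that of Cdc6, 1.35 ± 0.36. Both calls lie close to the threshold: leaving out any 1 sorted array other than Stella-positive day 7 array 4 ended both calls, and over 26 alternatives the adjusted p of Mcm3 ran from 0.0132 to 0.359 and that of Mcm6 from 0.0119 to 0.369.

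Day 7 cells were next compared with ESC of the same sorted fraction. These comparisons share the day 7 arrays with the sort comparison, and the ESC arrays with the ESC sort, so their values are not independent of those above. In Stella-negative cells, 24 of the 40 replication genes fell at day 7 and 2 rose, against 16% of all genes lower and 18.9% higher. The median was -0.83, and 0.18 over all genes. Pola2 read 78.2 and 80.5 in Stella-negative day 7 cells and 421, 339 and 285 in Stella-negative ESC (-1.98 ± 0.23, adjusted p = 1.35e-05, limma). Rfc5 read 345 and 408 at day 7 and 1319.5, 1395 and 1528 in ESC (-1.88 ± 0.23). Mcm3, at 452 and 496 against 1616, 1649 and 2007, fell by 1.86, and Mcm6, at 399 and 526 against 1338, 1578 and 1616, fell by 1.69. In these 4 genes every ESC array read above both day 7 arrays. They are named for the size of their falls in this comparison, so that separation is no further support.

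Rrm1 fell by 1.75, with 415 and 393 in Stella-negative day 7 cells and 1278, 1483 and 1406 in Stella-negative ESC. Lig1 fell by 1.53, Gins4 by 1.51 and Rpa2 by 1.46. By role, 3 of 6 helicase genes fell, 6 of 7 licensing genes (all but Cdt1, at 0.13 ± 0.20), 2 of 5 of GINS and Cdc45, 4 of 6 of clamp and loader, 5 of 8 of polymerases and primase, 2 of 3 of RPA, Lig1, and Rrm1. Against this direction, Fen1 rose by 1.30 ± 0.30 (adjusted p = 0.0038) and Tyms rose too (adjusted p = 0.0353). The Fen1 probe set read 1853 and 2188 in Stella-negative day 7 cells and 632, 716 and 1172 in Stella-negative ESC. Its second probe set read 190.0 and 208 at day 7 and 435, 560.5 and 600.2 in ESC, and fell by 1.36, so Fen1 has no settled direction here. Tyms rose at a dim probe set only, with 63.0 and 76.7 at day 7 and 24.3, 31.2 and 33.7 in ESC.

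In Stella-positive cells 9 of the 40 fell at day 7 and 3 rose, against 6.8% of all genes lower and 9.02% higher. The median was -0.07, with 0.13 over all genes. The share that rose is near that over all genes, so the 3 rises are no result about the list. With the mean over a gene's probe sets 0 rose and 10 fell, beside 5.59% of all genes higher and 6.25% lower. With quantile normalization 4 rose and 8 fell, beside 5.80% of all probe sets higher and 7.30% lower. Orc2, at 218, 196, 168 and 116 in Stella-positive day 7 cells against 399 and 457 in Stella-positive ESC, fell by 1.27 ± 0.24 (adjusted p = 0.00206, limma). It also fell in Stella-negative cells, by 1.41. Gins4 read 357, 394, 356 and 321 at day 7 and 759 and 761 in ESC, and fell by 1.07. Rrm1 read 638, 714, 709 and 881 at day 7 and 1464 and 1358 in ESC, and fell by 0.94. Pola2 fell by 0.90, Rfc3 by 0.88, Rfc5 by 0.80, Mcm3 by 0.77, Orc1 by 0.69 and Pold2 by 0.67. Another probe set of Orc1 passed the test as higher, so Orc1 has no settled direction in this comparison.

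The 3 that rose in Stella-positive cells were Fen1 (1.94 ± 0.29), Rfc4 (1.09 ± 0.24) and Rpa1 (0.86 ± 0.21). Fen1 read 2645, 3046, 4064 and 3186 in Stella-positive day 7 cells and 1014 and 672 in Stella-positive ESC, Rfc4 537, 593, 703 and 945 at day 7 and 382 and 255 in ESC, and Rpa1 5445, 5557, 7529.8 and 6664 at day 7 and 4236 and 2801 in ESC. None of the 3 rises was shared by the gene's second probe set, at -0.60 ± 0.23 for Fen1, -0.17 ± 0.23 for Rfc4 and -0.12 ± 0.19 for Rpa1, which did not pass.

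Probe sets of 1 gene did not always move the same way. Of the 26 genes with 2 or more probe sets kept, 6 had log2 differences of both signs in the day 7 sort, 23 in Stella-positive day 7 cells against ESC and 12 in the Stella-negative pair. In 15 of the 26, some probe sets passed the day 7 sort test and others did not. That was so for 14 in the Stella-positive and 17 in the Stella-negative pair. Over all 79 probe sets kept, 46 rose and 0 fell in the day 7 sort, 4 rose and 22 fell in Stella-positive cells at day 7, and 3 rose and 46 fell in Stella-negative cells. Rrm2 shows the spread. Its brightest probe set read 4042 and 4059 in Stella-negative day 7 cells and 3037, 2733 and 3289 in Stella-negative ESC (0.43 ± 0.22, not past the test). Another read 186 and 261 at day 7 and 1953, 1935 and 1879 in ESC, a fall of 3.06, and the third fell by 1.55. Mcm3 fell at 4 of its probe sets in Stella-negative cells, with log2 differences of -2.34 to -1.78, and rose at its dimmest, by 1.16. The 3'/5' ratios that differ between day 7 and ESC arrays, given above, move with these comparisons, and their part was not tested. With the Gapdh ratio as a covariate, 1 replication gene fell in Stella-positive cells, with a median of 0.04 and 1.11% of all probe sets lower. In Stella-negative cells 2 fell, with a median of -0.73 and 3.02% of all probe sets lower. In Stella-negative cells the share of all probe sets that passed as lower was 15% without the covariate. The median over all probe sets was -0.11 with it and 0.24 without it. Of the 40 genes 25 were below 0 with it, against 33 without it.

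**Figure D5:**
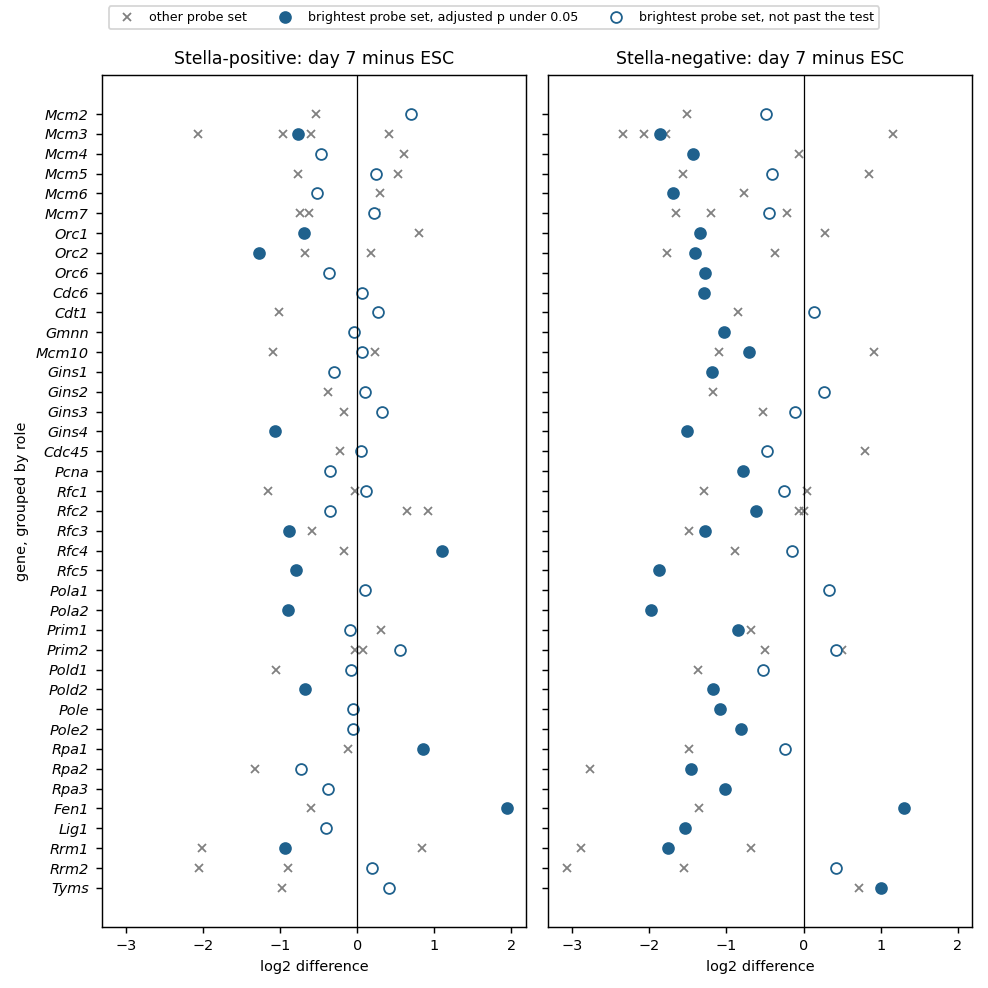
Log2 difference of day 7 minus ESC for each replication gene in Stella-positive (left) and Stella-negative cells (right); circles are the brightest probe set, filled where the test was passed, and crosses the gene's other probe sets. In Stella-negative cells most circles lie left of 0, down to -1.98, and Fen1 lies at 1.30 with its cross at -1.36.

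Unsorted ESC had less signal for part of the genes than the mean of both sorted ESC groups. Of the 40, 7 fell and 0 rose, against 3.02% of all genes lower and 3.24% higher, with a median of -0.32 and 0.05 over all genes. Mcm3 read 654 and 762 in unsorted ESC, against 2053 and 1998 in Stella-positive and 1616, 1649 and 2007 in Stella-negative ESC (-1.40 ± 0.16, adjusted p = 2.10e-04, limma). Rrm1 read 617 and 801 in unsorted ESC, below all 5 sorted arrays at 1278 to 1483, and fell by 0.98. Gins4 fell by 0.97, Rfc5 by 0.90, Lig1 by 0.87, Rpa2 by 0.86 and Mcm6 by 0.67. The 2 unsorted arrays were not alike: Rfc5 read 562 and 1073, and without unsorted array 1 only 1 of the 40 genes passed, with a median of -0.04. Fibroblast marker sums were 3106 to 9400.1 in unsorted ESC, against 1023 to 2756 in Stella-positive and 3538 to 4003 in Stella-negative ESC, and 4 of the 6 fibroblast markers rose. Their part in the result was not tested.

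Further genes of the pathway, and of mitosis, were counted in the same way, to be read against the shares over all genes given above (10.2% higher and 9.07% lower in the day 7 sort). Of 29 further fork and origin factors, 15 rose and 1 fell in Stella-positive against Stella-negative day 7 cells, with a median of 0.73. The largest rises were those of Chtf18, a subunit of an alternative clamp loader (1.37 ± 0.25), at 111 to 174 and 39.7 to 49.7, and of Rnaseh2a, the catalytic subunit of the ribonuclease that removes ribonucleotides from DNA (1.36 ± 0.19), at 376 to 486 and 144 to 182. Top1, the topoisomerase that relaxes DNA ahead of forks, fell by 1.13, with 604 to 782 in Stella-positive and 1537 to 1664 in Stella-negative cells. Against ESC, 6 of the 29 fell in Stella-positive day 7 cells, beside 6.8% of all genes, and 16 in Stella-negative day 7 cells, beside 16% of all genes. Mcmbp, an MCM-binding protein, had the lowest log2 difference of the 29 in both, at -1.43 in Stella-positive and -1.86 in Stella-negative cells, and fell in both.

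Of 11 other nucleotide supply genes, 8 rose in the day 7 sort, the most being Umps, an enzyme of pyrimidine synthesis (2.05 ± 0.29), at 218 to 382 in Stella-positive and 35.6 to 103 in Stella-negative cells. Among 6 chromatin assembly genes 3 rose, with Nasp, a histone chaperone, at 1.28. Of 13 E2F and pocket protein genes, 2 were higher and 2 lower, close to the shares over all genes, so the count is no result about that list. As single genes, E2f1, an activator of S phase genes, rose by 1.22, with 127 to 357 in Stella-positive and 69.7 to 70.9 in Stella-negative cells. E2f6, a repressor, fell by 1.23, with 89.2 to 137 and 258 to 282. E2f1 and E2f6 had the highest and the lowest day 7 difference of the 13. They were also the extremes in the ESC sort, at 0.18 for E2f1 and -0.98 for E2f6, and did not pass there. For E2f6 a difference of this direction was thus not particular to day 7. Mitotic genes, another group of dividing cells, rose in 12 of 19 with a median of 0.80, led by Ube2c, a ubiquitin-conjugating enzyme of mitotic exit (1.51 ± 0.19). In the ESC sort 0 genes of these 5 lists passed.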

How the data were processed

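Total RNA of 13 samples had been hybridised to 1-colour Affymetrix mouse arrays, and the deposited values are linear signal intensity per probe set, made with MAS5 per the submitters' processing notes. Groups came from the sample titles. The members and all gene lists were chosen with earlier results of these data known. The day 7 sort is the comparison that the series' design text names first.

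Each array was scaled to a common 2% trimmed mean of 105 over the 45037 probe sets without the 64 controls, and log2(signal + 10.5) was taken, 10.5 being 1/10 of that mean, so differences of dim genes are understated. The deposited trimmed means ran from 8.48 to 230. Probe sets above their array's median on at least 2 arrays were kept (30023). Of all probe sets, 34945 have 1 gene symbol in the platform annotation, 932 several and 9160 none, and a gene was represented by its brightest one-symbol probe set. limma 3.58.1 in R 4.3.3 was fitted to all 13 arrays in 5 groups with a trended prior (prior degrees of freedom 8.88), two-sided, with Benjamini-Hochberg adjustment over all kept probe sets within each of 6 contrasts; genes below an adjusted p of 0.05 count as called. The fit was tested on simulated data. No 2 arrays held identical values.

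All 40 genes are accounted for. Per contrast, up to 8 called members with the largest log2 difference, called members against the main direction, and with no call the 3 smallest p were named first, and from other lists up to 4 called genes a direction. Genes of those lists with no one-symbol probe set in the tables used, such as Chaf1a, Impdh2 and Ccnb1, were not analysed here. Alternatives varied scaling, constant, filter, variance prior, array weights, groups fitted, blocks for replicate number or run, the Gapdh ratio, the arrays used and the gene summary. Replicate numbers of title and array description differ, and arrays with the same number in 2 groups did not deviate together (correlation of residuals -0.02 to 0.07), so they were not paired.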

Additional observations from a re-analysis of the deposited data

Results flagged for a closer look

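In Stella-positive day 7 cells Mcm7 read 6382 on array 3 and 5344, 5285 and 5449.7 on the others. The gap from array 3 to its nearest neighbour is 0.850 of the group's range, above Dixon's limit for 4 samples. Of 40 replication genes looked at in this way 1 had such an array, and chance gives about 2.

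For Mcm6 and Mcm3 the sort difference at day 7 was larger than that in ESC, by 1.17 and 1.09 on the log2 scale (limma, adjusted p = 0.0496 and 0.0428, two-sided). Over the alternatives these adjusted p ran from 0.0119 to 0.369 for Mcm6 and from 0.0132 to 0.359 for Mcm3. All 4 Stella-positive day 7 arrays lay above both Stella-negative ones in both genes, a pattern shown by 19% of all genes.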

How the results depend on the processing

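In the day 7 sort no setting made a replication gene pass as lower. The count of genes passing, 29, was 14 with the run as a fixed block, 9 when the Gapdh ratio entered as a covariate (median 0.71), and 12 to 29 leaving out 1 array (12 without Stella-negative array 1, 16 without array 2). Their median, 0.83, became 1.07 with median centring and 0.79 to 0.84 leaving out 1 array; under that centring all probe sets together have a median of 0.12, against -0.12. In the ESC sort the count was 0 in every setting, and the median, 0.18, was 0.027 to 0.28 leaving out 1 array, the lowest without Stella-positive array 1. For Stella-positive cells at day 7 against ESC, the count of 12 was 1 with the Gapdh covariate and 4 to 12 leaving out 1 array (4 without ESC array 2). The median, -0.07, was -0.51 with median centring, -0.25 with the mean over probe sets and -0.30 to -0.033 leaving out 1 array. In Stella-negative cells, the count of 26 was 2 with the Gapdh covariate, under which the median was -0.73 and that of all probe sets -0.11. The median, -0.83, was -1.43 with median centring, which puts the median of all probe sets at -0.36, against 0.24 (in Stella-positive cells at -0.28, against 0.16). There 32 genes passed as lower and 0 as higher, against 24 and 2. Fen1 in Stella-negative cells was 1.30 and became -0.028 (adjusted p = 0.943, over alternatives 4.52e-04 to 0.943) with the mean over its probe sets, which point opposite ways. Of the interaction, 0 genes passed with median centring, no filter, a constant prior variance, the replicate block, the run as a fixed or random block, or the mean over probe sets, 1 with either other constant, 4 with quantile normalization, 7 with array weights, and 0 to 3 leaving out 1 array. Its median, 0.66, was 0.81 with median centring and 0.56 to 0.88 leaving out 1 array. With the Gapdh covariate 3 genes passed as higher in the interaction, Mcm3 and Mcm6 not among them, and the median was 0.56. In that fit 3.56% of all probe sets passed as higher and 5.73% as lower, with a median of 0.11. For unsorted ESC the count of 7 was 3 with a constant prior variance, 3 with the run as a random block, and 1 to 7 leaving out 1 array (1 without unsorted array 1, 4 without Stella-positive array 1). The median, -0.32, was -0.52 with median centring and -0.44 to -0.039 leaving out 1 array. Where a replicate's loss leaves 1 array in a group, that array is taken to vary like the others. With the replicate block, 25 genes passed in the day 7 sort, and pairing day 7 arrays by their description numbers gave 20; these settings and the random block were tried with no sign that the numbers pair the arrays, and the last 2 were chosen after seeing the data. The run as a fixed block gives no value for day 7 against ESC or for unsorted ESC. Of single genes named, 671 values under an alternative kept direction and side of the threshold, 113 no longer passed and 1 turned; the cause was not tested unless stated.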
